A study of Mus musculus with 12 samples.

Results

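Cirbp and Rbm3, the genes of a pair of small RNA-binding proteins known for their induction by mild cold, were followed through mouse liver by time of day and genotype. They were taken by name and are 2 of the 48440 genes in the deposited tables. The data are 12 poly(A) RNA-seq libraries of liver from male C57BL/6 mice, 8 weeks old, on chow at 22 °C with 12 h of light and 12 h of dark. Wild-type mice (WT) and transgenic mice with liver-specific overexpression of E4BP4 (TG) were each sampled at ZT2 and ZT14, 3 libraries per group, where ZT counts hours from lights on. Animals in all 4 groups shared strain, sex, age, diet and housing, and none was treated. The sources used here name neither the promoter of the transgene nor the number of transgenic lines, and the data used here include no animal's temperature.

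Cirbp and Rbm3 proteins each carry an RNA recognition motif followed by a glycine-rich tail. Their RNAs rise when cells are cooled by a few degrees, and in mammals the daily rhythm of body temperature, which is high in the active phase, is known to drive daily rhythms of both. Cirbp protein binds transcripts of clock genes and the pair affects which poly(A) site a transcript uses, and Rbm3 protein binds ribosomes and promotes translation. In cultured cells the temperature response of Cirbp RNA has been placed largely after transcription, in the efficiency of splicing, and that of Rbm3 in an alternative exon that sends the RNA to decay. E4BP4, encoded by Nfil3, is a repressor that binds D-box elements in the output of the circadian clock.

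Cirbp (ENSMUSG00000045193) lies on chromosome 10 from 80165985 to 80172786 on the plus strand of GRCm38, as the deposited tables give it. It has 6802 bases, of which 2604 are exonic in at least 1 of its 7 annotated transcripts, and 4 of those transcripts are retained-intron forms. Rbm3 (ENSMUSG00000031167) lies on chromosome X from 8138975 to 8145880 on the minus strand, with 6906 bases, 4698 of them exonic in at least 1 of 11 transcripts, 2 of which are retained-intron forms. Intron reads in these tables therefore come from the 4198 bases of Cirbp and 2208 bases of Rbm3 outside every annotated exon, and a read from a retained intron that is annotated as such counts as exonic. The exonic lengths equal the union of GENCODE M21 exons.

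A stretch of the Cirbp promoter is shown because it holds the sequence described as the mild-cold responsive element of this gene. It is taken from RefSeq on GRCm38.p6, plus strand, chr10:80167589-80167777, part of the 250 bases before the RefSeq start site at 80167839 and outside annotated exons, and the capitals mark the letters of the element.
Cirbp promoter: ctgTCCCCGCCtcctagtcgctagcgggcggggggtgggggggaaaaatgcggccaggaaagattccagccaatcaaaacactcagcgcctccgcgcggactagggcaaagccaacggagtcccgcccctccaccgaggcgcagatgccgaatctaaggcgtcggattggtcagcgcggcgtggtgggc
The element, searched as TCCCCGCC on both strands, starts 247 bases before the start site and was absent from the other Cirbp window. It was found in the 250 upstream bases of 1525 of 32851 promoter windows, 4.64%. A D-box searched as TTANGTAA, the binding sequence of E4BP4, was present in 2.06% of windows. An E-box searched as CACGTG, the binding sequence of the core clock factors, was present in 6.02% of windows. A heat shock element was present in 0.466% of windows. None of these 3 was in either of the 2 Cirbp windows. The table used holds no window for Rbm3.

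Across the libraries, total gene reads numbered 16035121 to 23981021, 81.2% to 85.5% of them uniquely mapped and 9.79% to 11.9% in introns. Nfil3, the gene overexpressed by design, was at 24.6 to 48.8 CPM (read counts scaled to library size after TMM) in the 6 WT libraries and at 62.6 to 93.9 CPM in the 6 TG libraries, with no overlap. Hepatocyte markers summed to 70196 to 90461 CPM per library, and no marker of the 8 cell type lists was at 0 in every library. Marker sums, here and below, are scaled to library size without TMM. On the second principal component replicate 2 of TG at ZT2 (-30.8) and replicate 3 of TG at ZT14 (-33.2) stood apart from the others (2 to 12.1). The labels do not state that libraries of a group come from separate animals. The p-values here therefore reflect the spread among libraries, which may be technical. In whole liver, a difference in the number of cells that express a gene and a difference in RNA per cell cannot be told apart.

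Rbm3 RNA was higher at ZT14 than at ZT2 in both genotypes. In WT livers it measured 18.3, 19.8 and 17.5 CPM at ZT2 and 27.6, 26.0 and 24.3 CPM at ZT14, in replicate order. In TG livers it measured 15.8, 14.95 and 16.2 CPM at ZT2 and 28.6, 29.6 and 33.3 CPM at ZT14. Every ZT14 library lay above every ZT2 library, whatever the genotype. These levels rest on 272 to 838 reads of Rbm3 per library.

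The rise of Rbm3 was 1.40-fold in WT (log2 fold change 0.49, SE 0.088, edgeR adjusted p = 0.00443) and 1.95-fold in TG (0.96, SE 0.089, adjusted p = 5.25e-05). Of all 15244 genes tested, 9.17% passed the same test in WT and 12.2% in TG. Averaged over genotypes the difference was 1.65-fold (0.72, SE 0.063, adjusted p = 8.17e-06), a contrast in which 22.5% of genes passed. Both directions were common, with 12% of genes higher and 10.4% lower at ZT14.

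Part of the Rbm3 reads also map elsewhere in the genome. In WT livers the uniquely mapped share was 85.5% to 89.5% at ZT2 and 81.2% to 85.7% at ZT14. In TG livers it was 86.5% to 90.8% at ZT2 and 78.4% to 80.5% at ZT14. With uniquely mapped reads alone the log2 fold change was 0.42 in WT (SE 0.090, edgeR adjusted p = 0.0104) and 0.80 in TG (SE 0.091, adjusted p = 0.000164). The time difference thus passed on unique reads too, and its size was smaller.

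Cirbp RNA moved the opposite way, and its libraries were less uniform. In TG livers it measured 20.9, 20.9 and 26.8 CPM at ZT2 and 13.1, 13.8 and 14.5 CPM at ZT14, with no overlap. In WT livers it measured 13.1, 14.9 and 30.6 CPM at ZT2 and 14.7, 13.7 and 12.8 CPM at ZT14, which overlap. The share of all genes separated as Cirbp was in TG is not given here. Replicate 3 of WT at ZT2 held the highest value of all 12 libraries, while the other two of its group sat at the ZT14 level. These levels rest on 235 to 591 reads of Cirbp per library, and all of these reads were uniquely mapped except in TG at ZT14 replicate 3, at 99.7%.

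Averaged over genotypes, Cirbp was 1.53-fold lower at ZT14 (log2 fold change -0.62, SE 0.18, edgeR adjusted p = 0.0238). By genotype the log2 fold change was -0.73 in TG (SE 0.25, adjusted p = 0.0764) and -0.51 in WT (SE 0.25, adjusted p = 0.247), neither past the threshold of 0.05. Replicate 3 of WT at ZT2 weighed on the WT and averaged values and on the shared error. Without it the difference in WT was -0.02 (SE 0.13, adjusted p = 0.949), that in TG stayed at -0.73 with a smaller error and passed (SE 0.11, adjusted p = 0.00219), and the average was -0.37 (SE 0.086, adjusted p = 0.0107). The averaged call was lost on leaving out replicate 3 of TG at ZT2 (adjusted p = 0.0590), replicate 3 of WT at ZT14 (adjusted p = 0.0547) or replicate 1 of TG at ZT14 (adjusted p = 0.0517).

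Some markers of liver cell types differed by time in the averaged contrast, where 22.5% of all genes passed, 12% higher and 10.4% lower. Of 6 endothelial markers 2 were lower at ZT14 in the averaged contrast, with summed levels of 245 to 288 CPM at ZT2 and 238 to 274 CPM at ZT14. Both neutrophil markers tested were lower at ZT14, with a summed level of 0.431 to 3.25 CPM at ZT2 and 0.219 to 1.92 CPM at ZT14, and 1 of 7 hepatocyte markers was higher. No tested marker of the cholangiocyte, stellate cell, macrophage, lymphocyte or erythroid lists passed. Their part in the values of Cirbp and Rbm3 was not tested.

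**Figure D1:**
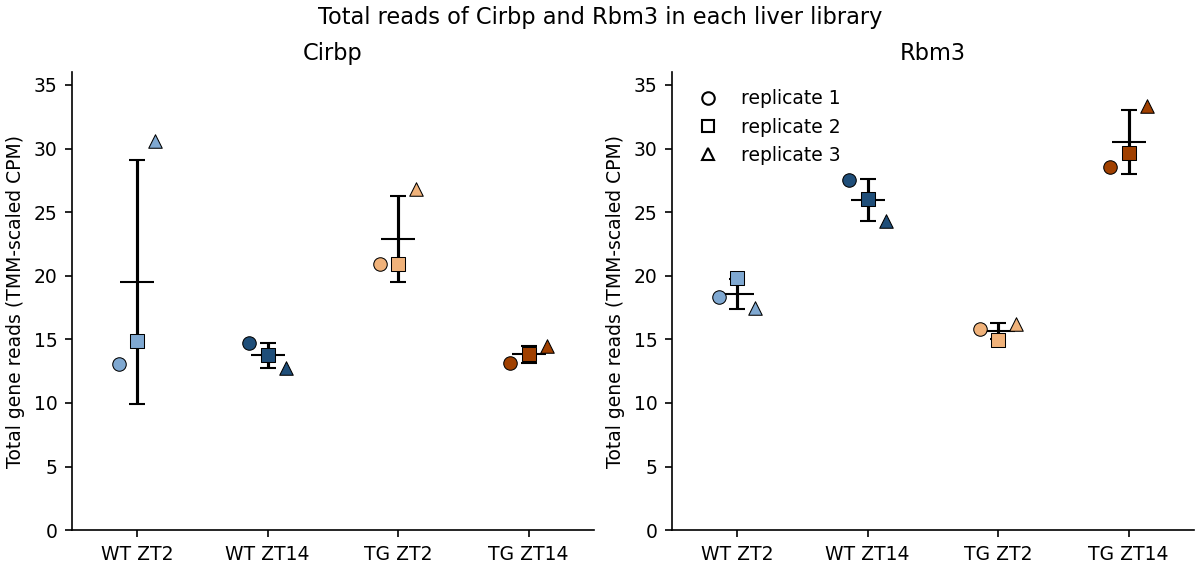
Total reads of Cirbp (left) and Rbm3 (right) in TMM-scaled CPM, 1 point per library by group, with the mean as a bar and the SD over 3 libraries as whiskers. All 6 Rbm3 values at ZT14 lie above all 6 at ZT2, and replicate 3 of WT at ZT2 stands out for Cirbp at 30.6 CPM.

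Per length, the order of the pair changed between the times. Cirbp was at 14.7 ± 7.14 TPM (reads scaled to exonic length and depth, SD, n = 3) in WT and 16.8 ± 3.21 TPM in TG at ZT2, and at 9.84 ± 0.711 TPM in WT and 10.2 ± 1.28 TPM in TG at ZT14. Rbm3 was at 7.76 ± 0.690 TPM in WT and 6.83 ± 0.325 TPM in TG at ZT2, and at 11.7 ± 0.881 TPM in WT and 14.6 ± 1.502 TPM in TG at ZT14. From low to high, the groups ran WT ZT14, TG ZT14, WT ZT2 and TG ZT2 for Cirbp, and each pair of neighbours in this order overlapped, such as TG at ZT14 (9.08 to 11.6 TPM) and WT at ZT2 (9.58 to 22.8 TPM). For Rbm3 the order was TG ZT2, WT ZT2, WT ZT14 and TG ZT14, and of the neighbours only the ZT2 groups, at 6.52 to 7.17 and 7.02 to 8.38 TPM, overlapped.

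The ratio of Rbm3 to Cirbp within a library does not depend on how libraries are scaled. In TPM it was 0.732, 0.719 and 0.345 in WT at ZT2 and 0.462, 0.432 and 0.351 in TG at ZT2. At ZT14 it was 1.16, 1.22 and 1.19 in WT and 1.42, 1.47 and 1.40 in TG. Cirbp was thus the more abundant RNA per length in all 6 libraries at ZT2 and Rbm3 in all 6 at ZT14. This change of order depends on the exonic lengths, 2604 bases for Cirbp and 4698 for Rbm3, which include those of retained-intron forms. On total reads, not scaled to length, the ratio at ZT2 was 1.40, 1.33 and 0.572 in WT and 0.605 to 0.757 in TG. At ZT14 it was 1.88 to 1.90 in WT and 2.14 to 2.30 in TG.

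On read counts, the log2 ratio of Rbm3 to Cirbp was 1.28 higher at ZT14 than at ZT2, by 0.89 in WT and 1.68 in TG. The exact 2-sided permutation test within genotypes gave p = 0.005, which is the lowest value that 400 relabellings allow, and 0.05 after Benjamini-Hochberg adjustment over 10 such tests, which is at the threshold and not below it. Between genotypes the log2 ratio differed by -0.17 (TG less WT, exact permutation p = 0.415, adjusted 0.461). Across the 12 libraries the log2 CPM of the pair had a Pearson r of -0.70 and a Spearman rho of -0.57, and r of -0.13 once group means were removed. These are descriptions, since the libraries share groups and the scaling of depth.

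**Figure D2:**
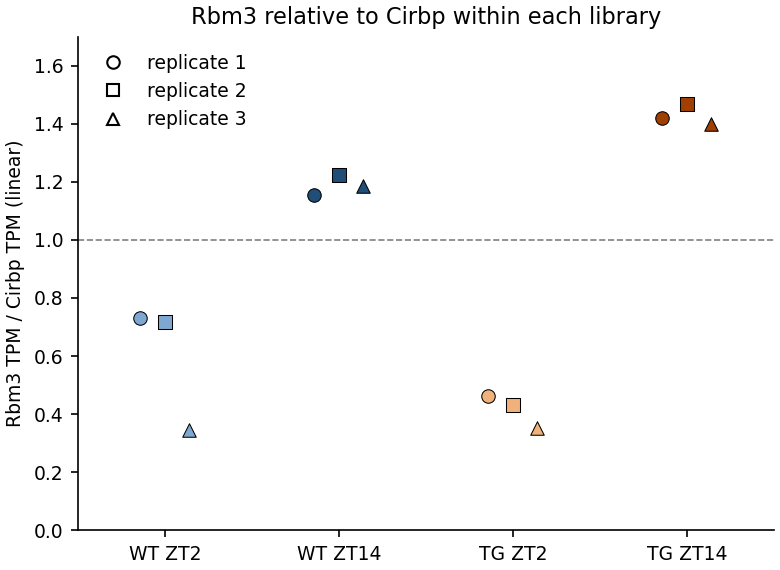
Ratio of Rbm3 to Cirbp in TPM (linear scale), 1 point per library by group, with the dashed line at equal TPM. The ZT2 libraries lie between 0.345 and 0.732 and the ZT14 libraries between 1.16 and 1.47.

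The transgene gave no call for either gene, in contrasts where few genes passed. For TG against WT 0.0722% of genes passed at ZT2, 0.0853% at ZT14 and 0.144% averaged over times. Cirbp differed by a log2 fold change of 0.23 at ZT2 (SE 0.25, edgeR adjusted p = 0.872) and 0.01 at ZT14 (SE 0.25, adjusted p = 0.997). Rbm3 differed by -0.24 at ZT2 (SE 0.090, unadjusted p = 0.0191, adjusted p = 0.603) and by 0.23 at ZT14 (SE 0.086, unadjusted p = 0.0184, adjusted p = 0.638).

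On total reads the Rbm3 values of TG lay outside the WT range at each time. This is a description, since the share of all genes separated in this way, with 3 libraries per group, is not given here. At ZT2 all 3 TG values, 14.95 to 16.2 CPM, were below all 3 WT values, 17.5 to 19.8 CPM. At ZT14 all 3 TG values, 28.6 to 33.3 CPM, were above all 3 WT values, 24.3 to 27.6 CPM. The interaction (the change from ZT2 to ZT14 in TG minus the same change in WT) was 0.48 for Rbm3 (SE 0.12, unadjusted p = 0.00229, adjusted p = 0.675). It ranked 51 by p among 15244 genes, of which 0.00656% passed. On uniquely mapped reads the interaction was 0.38 (SE 0.13, adjusted p = 0.754), and the genotype difference at ZT14 was 0.15 (SE 0.088, adjusted p = 0.741). On exon-exon reads the genotypes overlapped at ZT2, with 17.7, 18.1 and 21.6 CPM in WT and 17.7, 21.6 and 21.9 CPM in TG, lowest to highest, and the direction turned (log2 fold change 0.091, SE 0.11, adjusted p = 0.947). The interaction on exon-exon reads was 0.20 (SE 0.15, unadjusted p = 0.204, adjusted p = 0.890). The larger time difference of Rbm3 in TG is therefore not a call in these data.

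For Cirbp the interaction was -0.22 (SE 0.35, edgeR adjusted p = 0.959). The Cirbp libraries of WT at ZT2 set the size of these values, in both directions. Without replicate 3 the genotype difference at ZT2 was 0.71 (SE 0.13, adjusted p = 0.0927) and the interaction -0.71 (SE 0.17, adjusted p = 0.442). Without replicate 1 they were 0.0051 (adjusted p = 0.997) and -0.00034 (adjusted p = 0.9996), and without replicate 2 they were 0.072 (adjusted p = 0.991) and -0.064 (adjusted p = 0.989). Without replicate 3 of TG at ZT2 they were 0.0996 (adjusted p = 0.982) and -0.092 (adjusted p = 0.996).

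The tables count exon, exon-exon junction and intron reads separately, and the time difference was compared between these classes. The classes do not fully separate processed from unprocessed RNA, since reads from annotated retained introns count as exonic. For Cirbp the fall at ZT14 was carried by exon and junction reads. Averaged over genotypes it was -0.74 on exon reads (SE 0.18, edgeR adjusted p = 0.00963) and -0.81 on exon-exon reads (SE 0.17, adjusted p = 0.0033), in contrasts where 25% and 20.4% of genes passed. On intron reads it was -0.14 (SE 0.21, adjusted p = 0.734), where 11.3% of genes passed. In TG alone the difference in Cirbp passed on exon reads (-0.82, SE 0.25, adjusted p = 0.0496) and on exon-exon reads (-0.98, SE 0.23, adjusted p = 0.0172), with 13.5% and 10.4% of genes passing.

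The WT values by read class rest on replicate 3 of WT at ZT2. In WT at ZT2 Cirbp was at 14.6, 16.5 and 28.0 CPM on exon-exon reads and at 16.01, 15.4 and 40.7 CPM on intron reads, each scaled within its class. Without replicate 3 the difference in WT was -0.31 on exon-exon reads (SE 0.20, edgeR adjusted p = 0.425), -0.19 on exon reads (SE 0.16, adjusted p = 0.518) and 0.77 on intron reads (SE 0.23, adjusted p = 0.135). The averaged difference was then -0.64 on exon-exon reads (adjusted p = 0.00529), -0.51 on exon reads (adjusted p = 0.00548) and 0.17 on intron reads (adjusted p = 0.532).

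Rbm3 rose on exon reads, by 0.75 on the log2 scale (SE 0.068, edgeR adjusted p = 8.78e-06), and on exon-exon reads, by 0.77 (SE 0.075, adjusted p = 8.45e-06). On its intron reads the difference was 0.40 (SE 0.24, adjusted p = 0.307), and 0.23 (adjusted p = 0.530) without replicate 3 of WT at ZT2. Intron reads of Rbm3 numbered 18 to 85 per library and those of Cirbp 26 to 90, so the SE of intron values is wide.

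**Figure D3:**
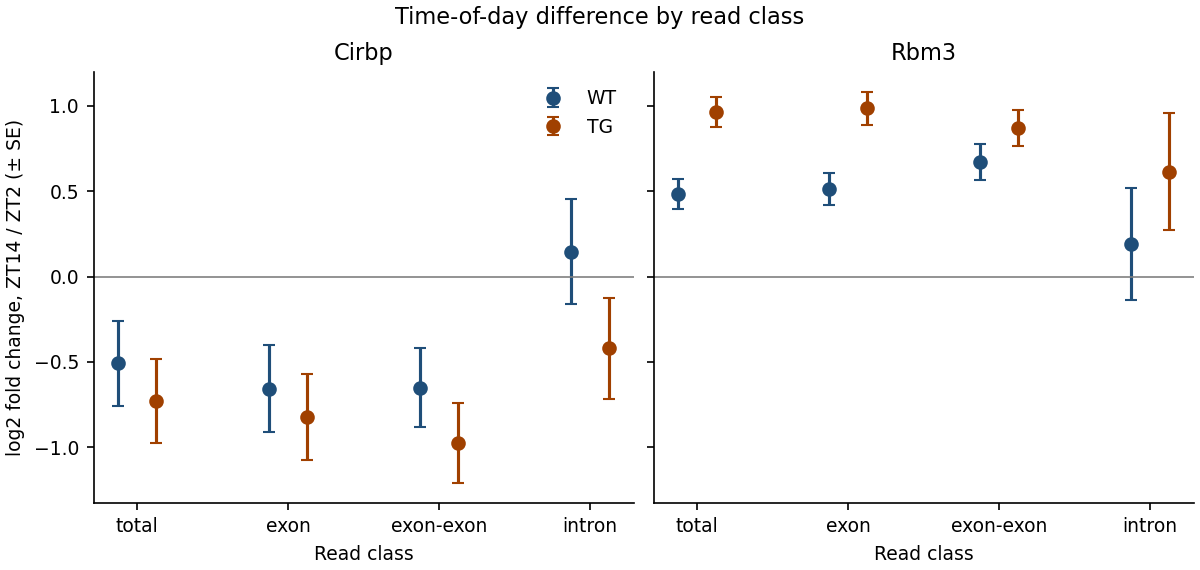
Log2 fold change of ZT14 over ZT2 with its SE for Cirbp (left) and Rbm3 (right), by read class and genotype. For Cirbp the exon-exon values are -0.65 in WT and -0.98 in TG against intron values of 0.15 and -0.42 (in WT -0.31 and 0.77 without replicate 3 at ZT2), and for Rbm3 all 8 values are above 0.

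The intron share of Cirbp reads was higher at ZT14 than at ZT2 in WT livers. There it was 11.5%, 11.1% and 14.9% of reads at ZT2 and 20.4%, 23.0% and 21.1% at ZT14, with no overlap. In TG livers it was 15.2%, 23.6% and 14.2% at ZT2 and 21.2%, 26.2% and 18.1% at ZT14, which overlap through replicate 2 of TG at ZT2, one of the libraries that stood apart. Over all genes the intron share did not run this way, at 10.5% to 11.9% at ZT2 and 9.79% to 11.5% at ZT14. The lack of overlap in WT is a description, since the share of genes separated in this way is not given here. The WT shares rest on 26 to 88 intron reads of Cirbp per library at ZT2 and 63 to 74 at ZT14.

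In the edgeR model of exon and intron reads of the same library, Cirbp intron reads were 1.52-fold higher at ZT14 relative to exon reads, averaged over genotypes (log2 0.61, SE 0.17, adjusted p = 0.0477). Of 10782 genes tested 5.91% passed, 3.65% with higher and 2.25% with lower intron reads. In WT the value was 0.83 (SE 0.25, adjusted p = 0.156) and in TG 0.38 (SE 0.24, adjusted p = 0.475), where 0.946% and 2.6% of genes passed. The exact permutation test on the share itself gave a mean difference of 6.60 percentage points (9.03 in WT and 4.17 in TG, p = 0.015, adjusted 0.075). The model's call is near its threshold. It passed in 2 of the 12 fits that left out 1 library, with values of 0.49 to 0.73 and adjusted p of 0.0194 to 0.137, and it was lost with DESeq2 (adjusted p = 0.0748), limma-voom (adjusted p = 0.0528) and exon-exon in place of exon reads (adjusted p = 0.0514). Without both libraries that stood apart it was 0.82 (adjusted p = 0.00961).

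Rbm3 had an intron share of 16.7%, 13.4% and 7.40% at ZT2 and 11.6%, 10.2% and 11.1% at ZT14 in WT livers. In TG livers it was 6.57%, 16.5% and 10.2% at ZT2 and 7.21%, 8.69% and 10.1% at ZT14. The ranges overlapped between the times in each genotype. Relative to exon reads its intron reads differed by -0.35 at ZT14 (SE 0.24, edgeR adjusted p = 0.448).

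**Figure D4:**
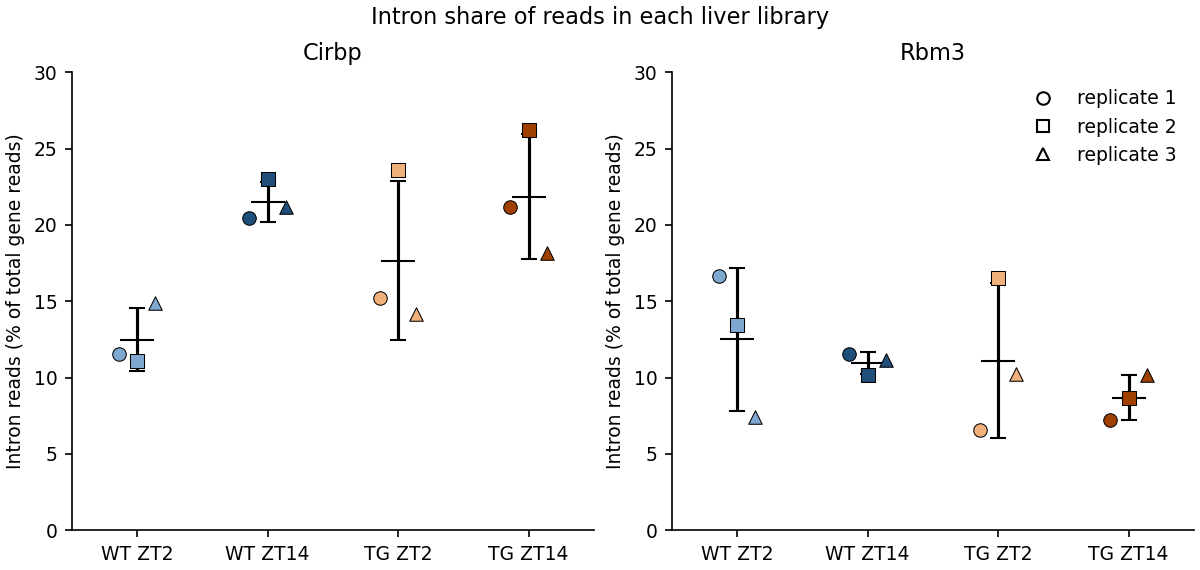
Intron reads as a percentage of total gene reads for Cirbp (left) and Rbm3 (right), 1 point per library by group, with mean and SD over 3 libraries. Cirbp in WT runs from 11.1% to 14.9% at ZT2 and from 20.4% to 23.0% at ZT14, while the Rbm3 groups overlap. The edgeR test of Cirbp intron against exon reads by time did not pass in WT (adjusted p = 0.156).

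Between genotypes, intron against exon reads passed for neither gene, in contrasts where 0.00927% of genes passed at ZT2, 0.0185% at ZT14 and 0.0278% on average. For Cirbp the averaged value was 0.24 (SE 0.18, edgeR adjusted p = 0.731) and for Rbm3 -0.34 (SE 0.24, adjusted p = 0.715). The share of exon reads that span an exon junction, a measure of spliced RNA among exonic reads, averaged 57.3% in WT and 52.8% in TG at ZT2 and 55.9% and 48.0% at ZT14 for Cirbp. This is a mean difference of -6.14 percentage points (TG less WT, exact permutation p = 0.05, adjusted 0.163). For Rbm3 the averages were 56.6% in WT and 68.6% in TG at ZT2 and 63.3% and 63.7% at ZT14, a mean difference of 6.18 points (exact permutation p = 0.065, adjusted 0.163). Neither difference passed.

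Genes related by protein family or by pathway are given for the averaged time contrast, where 22.5% of all genes passed and the median log2 fold change over all genes was 0.0011. Of 13 glycine-rich relatives with an RNA recognition motif, 1 rose, 2 fell and the other 10 did not pass. Their median was -0.07. Tardbp (TDP-43) fell by 0.35 on the log2 scale (SE 0.061, edgeR adjusted p = 0.00143) and Ewsr1 rose by 0.18 (adjusted p = 0.0334). Among the 30 tested of 38 other genes named Rbm, 6 rose, 2 fell and the other 22 did not pass. Their median was 0.10. Rbm25, a splicing factor, rose by 0.50 (SE 0.072, adjusted p = 0.000386) and Rbm14 by 0.69 (SE 0.18, adjusted p = 0.0141), while Rbm20, the splicing factor of titin, fell by 0.52 (SE 0.14, adjusted p = 0.0216). The Rbm3 value of 0.72 was above that of every gene in this family that passed, and Cirbp's -0.62 was below; no test of that difference was made.

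Of the 5 cold shock domain genes tested, of 8 listed, Ybx3 rose by 0.28 (edgeR adjusted p = 0.00511), Carhsp1 fell by 0.22 (adjusted p = 0.0338) and 3 did not pass. Of 24 splicing regulators, a list of CLK and SRPK kinases, SR proteins and Tra2 proteins with Hnrnph1, Hnrnph2, Hnrnpf, Sf3b1, U2af1 and U2af2, 4 rose, 2 fell and the other 18 did not pass. Their median was 0.08. Srsf2 rose by 0.66 (SE 0.080, adjusted p = 0.000106) and Srsf5 fell by 0.45 (SE 0.082, adjusted p = 0.00179). No CLK kinase passed, the nearest being Clk2 at 0.23 (adjusted p = 0.058). Of 17 cleavage and polyadenylation factors tested, the machinery at whose sites Cirbp and Rbm3 proteins act, Cstf3 (0.31) and Fip1l1 (0.29) rose, Wdr33 (-0.16) and Papola (-0.23) fell and 13 did not pass.

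Heat shock genes, which respond to warming through the factor HSF1, ran one way. Of 23 tested, 17 rose at ZT14, 0 fell and the other 6 did not pass. Their median was 0.72. In WT alone 12 rose, against 4.85% of all genes, and in TG alone 11 rose, against 6.7% of all genes, with 0 falling in either. At an unadjusted p under 0.05, 18 were higher and 0 lower on average, and DESeq2 and limma-voom also called 17 higher and 0 lower. The shares of all genes that go with these last counts are not given here, so these counts add no result about the list. Hspa1b, an inducible Hsp70, rose 7.21-fold (SE 0.31 on the log2 scale, edgeR adjusted p = 4.22e-05). The co-chaperone Bag3 rose 2.70-fold (adjusted p = 1.81e-05) and the constitutive chaperone Hspa8 1.89-fold (adjusted p = 3.14e-05). Hsf1 itself was at 0.06 (adjusted p = 0.642). Averaged over genotypes, this list moved with Rbm3 and against Cirbp. In WT alone the fall of Cirbp did not pass (-0.51, edgeR adjusted p = 0.247). Without replicate 3 of WT at ZT2 the WT value of Cirbp was -0.02 (adjusted p = 0.949). Whether the changes are linked was not tested.

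Of 10 thermogenic and temperature-sensing genes tested, of 16 listed, Trpv1, a heat-gated channel, rose 4.27-fold from low levels (edgeR adjusted p = 0.00332), Adrb3, an adrenergic receptor, fell by 0.86 on the log2 scale (adjusted p = 0.02) and 8 did not pass. Of 10 receptors and partners of Cirbp protein tested, Tnpo1, which imports it into the nucleus, fell by 0.21 (adjusted p = 0.0151), Ly96, the MD-2 partner of the receptor that extracellular Cirbp protein binds, fell by 0.46 (adjusted p = 0.0221), and 8 did not pass. Of the 132 genes tested in these lists, 0 passed in edgeR for genotype or the interaction. At an unadjusted p under 0.05 there were 7 for genotype at ZT2, 2 at ZT14, 5 on average and 7 for the interaction. The share of all genes under that unadjusted threshold is not given here, so these counts are no result about the lists. DESeq2 called 1, the heat shock gene Hspa1a, lower in TG at ZT2 and on average, among the 56 and 75 genes it called in these contrasts. In limma-voom 0 were called.

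In the comparison of intron with exon reads by time, where 5.91% of genes passed, 4 members of these lists passed. They were 1 of 12 glycine-rich relatives tested, 2 of 27 other Rbm genes and 1 of 16 cleavage and polyadenylation factors. None of 24 splicing regulators, 20 heat shock, 4 cold shock domain and 7 thermogenic and temperature-sensing genes or 9 Cirbp protein partners passed. These counts are a description and no result about the lists. Relative to exon reads, intron reads were higher at ZT14 for Hnrnpa3 (log2 0.64), Rbm28 (0.54) and Rbm20 (0.71), and lower for Fip1l1 (-0.66).

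**Figure D5:**
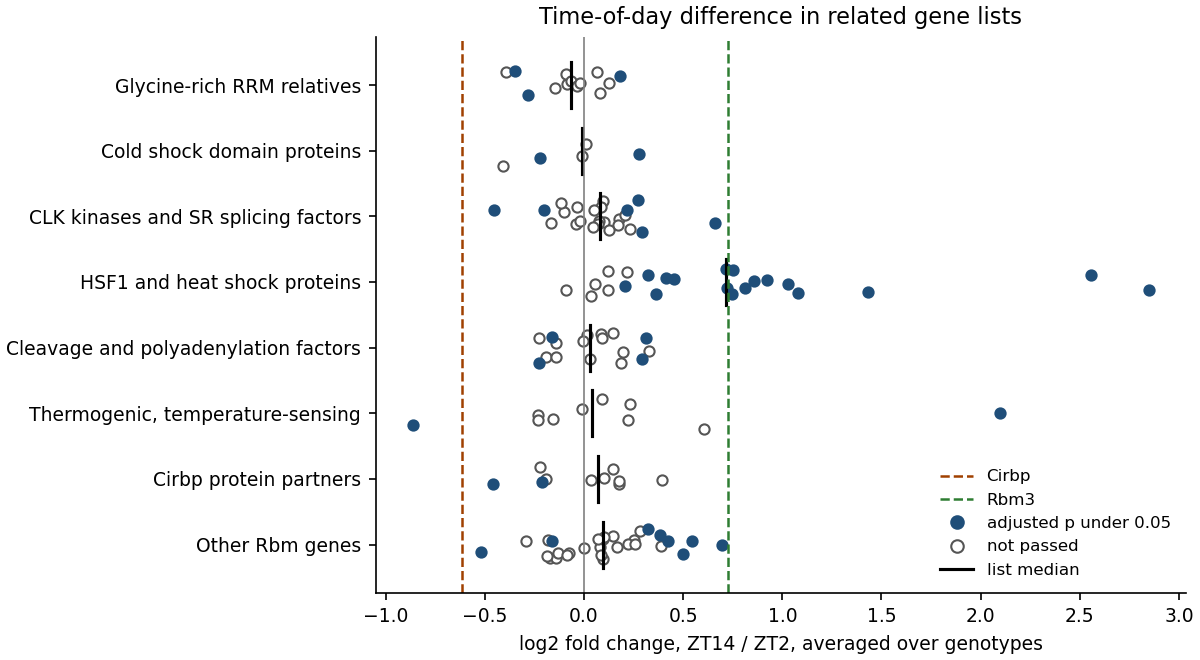
Log2 fold change of ZT14 over ZT2, averaged over genotypes, for each tested gene (points) of 8 lists, with the list median as a black bar and dashed lines at Cirbp and Rbm3. Filled points passed an adjusted p of 0.05, and the heat shock list has 17 filled points, all above 0.

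Genes with the profiles most like those of the pair were sought over the 12 libraries by the Pearson r of log2 CPM. The search held 9306 genes with a mean of at least 5 CPM, leaving out those with predicted-gene, clone-type or pseudogene names. The r values are given as a description because all libraries share the time and genotype groups. For Cirbp the highest r were those of Brd9 (0.91), Soat2 (0.90), Snx21 (0.89), Pced1b (0.89) and Usp28 (0.88), and the lowest those of Lats2 (-0.92), Zfp664 (-0.91), Camsap1 (-0.90), Slc35e3 (-0.89) and Otud3 (-0.89). Soat2, which esterifies cholesterol, fell at ZT14 by 0.50 on the log2 scale (SE 0.0996, edgeR adjusted p = 0.00351), close in size to Cirbp. Without replicate 3 of WT at ZT2 these r were 0.86 to 0.95 and -0.95 to -0.87.

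For Rbm3 the highest r were those of Enthd2 (0.97), Ncdn (0.97), Hs6st1 (0.97), Nop2 (0.96) and Kri1 (0.96), and the lowest those of Cldn1 (-0.98), Npas2 (-0.98), Rnf125 (-0.97), Elp4 (-0.97) and Thap4 (-0.97). Nop2, an RNA methyltransferase of ribosome assembly, averaged 16.9 CPM at ZT2 and 27.7 CPM at ZT14 in WT, and 15.7 and 35.6 CPM in TG. Npas2, a clock transcription factor, averaged 8.04 CPM at ZT2 and 0.483 CPM at ZT14 in WT, and 16.1 and 0.0870 CPM in TG. Its group means thus run in the reverse order to those of Rbm3.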

How the data were processed

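Liver poly(A) RNA of 12 samples was sequenced from NEBNext Ultra libraries, per the labels' protocols, and each sample has 1 deposited table of gene values. Per the file headers, the tables hold counts of total, exon, exon-exon, intron and uniquely mapped reads, with RPKM and TPM. Total gene reads equal exon plus intron reads in every row. The deposited RPKM is exon reads per exonic length and total gene reads, as checked. The deposited TPM was used for levels of the pair per length, their order over the groups and their ratio. It was not used to test either gene alone. The submitters' processing notes name mm10 and GRCm38. The sources used here do not name the aligner, its settings or the use of strand, so overlapping genes on opposite strands cannot be told apart.

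Counts were tested with edgeR 4.0.16 in R 4.3.3 (filterByExpr with a minimum count of 10 and total of 15, TMM, glmQLFit and glmQLFTest) in 1 model of all 12 libraries in 4 groups, with Benjamini-Hochberg adjustment over all genes tested and a threshold of 0.05. The SE is the log2 fold change over the root of F. Exon and intron counts of each library entered a second edgeR model of 24 columns with library and group-by-intron terms, which needs a gene to pass the filter in both classes. Shares and ratios were compared by exact permutation within the other factor. Both edgeR models were run on simulated counts, with 200 genes changed, for ZT14 against ZT2 in WT only, and the outcome is not given here. The permutation tests, the other contrasts, DESeq2 and limma-voom were not run on simulated counts. The chi-square per degree of freedom between libraries of a group was 9.849 to 90.89, so no library was counted as a repeat.

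The members, the lists, the tests and the omission of 2 libraries that stand apart were chosen with earlier results of these data known. Besides the pair, genes named are the 5 most and 5 least alike, up to 6 passing list members with the smallest p, and genes within 50 kb, of which the text names fewer. The values of 1 list member are not reported here. Hsf1, Clk2 and, for genotype, Hspa1a were named after their values were seen. Motifs were searched in the 250 bases before RefSeq start sites. Alternatives were RLE factors or library size alone, DESeq2 1.42.0, limma-voom 3.58.1, 2 other filters, other read classes, fits to 1 contrast's samples, a replicate block and each library left out.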

Additional observations from a re-analysis of the deposited data

How the results depend on the processing

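The time difference of Rbm3 kept its direction and call under every alternative but intron reads, where it was 0.19 in WT, 0.61 in TG and 0.40 on average, none passing. Leaving out 1 library gave 0.44 to 0.54, 0.90 to 1.01 and 0.69 to 0.75, all passing. Cirbp on intron reads was 0.15 in WT and -0.14 on average. In TG it passed with DESeq2 (-0.74), without a filter (-0.72), on exon (-0.82) and exon-exon reads (-0.98), and with only the samples of the contrast (-0.73). Without 1 library Cirbp ran from -0.74 to -0.02 in WT, from -0.80 to -0.60 in TG (passing also without WT at ZT2 replicate 1) and from -0.74 to -0.37 on average. Without WT at ZT2 replicate 3, tried after seeing the data, intron reads gave 0.17 for Cirbp on average and -0.15 for Rbm3 in WT. The cause of these changes was not tested.

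Genotype values, none of which passed, changed sign in places. On exon-exon reads Rbm3 was 0.091 at ZT2 (total reads -0.24) and 0.19 on average, and Cirbp -0.20 at ZT14 and -0.035 on average. Rbm3 was -0.096 at ZT14 on intron reads (total reads 0.23), and on average 0.024 with library size alone and 0.032 on exon reads. Cirbp at ZT14 was -0.0054 with the replicate block and -0.0303 without both libraries that stood apart. Leaving out 1 library gave Cirbp at ZT14 -0.042 to 0.059 and Rbm3 on average -0.038 to 0.0199.

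Cirbp intron against exon reads by time did not pass with DESeq2 (0.60, adjusted p = 0.0748), limma-voom (0.60, adjusted p = 0.0528) or exon-exon in place of exon reads (0.66, adjusted p = 0.0514), passed in WT with library size alone (1.09), and was 0.49 to 0.73 without 1 library. The Rbm3 interaction there was 0.18 on exon-exon reads and 0.18 without both libraries. Without 1 library Rbm3 intron against exon reads ran from -0.69 to 0.10 in WT by time, from -0.68 to 0.12 by genotype at ZT2 and from -0.51 to 0.30 for the interaction, Cirbp from -0.19 to 0.19 by genotype at ZT14, and the Rbm3 junction share by time from -0.95 to 2.36 points.

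Counts of genes passing on total reads moved by over 1.5 times for genotype, from 11 to 56 (DESeq2) or 43 (no filter) at ZT2, from 13 to 51 or 41 at ZT14, from 22 to 75 or 61 on average and from 1 to 22 or 11 for the interaction, which had 2 with the replicate block and 4 with RLE factors or uniquely mapped reads. By time they moved from 1398 to 239 in WT, from 1862 to 698 in TG and from 3423 to 1404 on average with intron reads, and in TG to 1178 with exon-exon reads and 1150 without both libraries. Counts for intron against exon reads moved from 102 to 350 (library size alone) or 309 (no filter) in WT, from 280 to 526 (no filter) or 138 (without both libraries) in TG and from 637 to 1424 (library size alone) on average, and without a filter from 1 to 187 at ZT2, from 2 to 35 at ZT14 and from 3 to 160 on average for genotype and from 0 to 33 for the interaction. No pairing by replicate number was seen, though these correlations cannot exclude one. Of 18 same-numbered pairs across groups, 2 correlated above 0.1 (median r 0.0327, other pairs 0.0051), and the replicate block changed no call of Cirbp or Rbm3. The block could not be added to the model of exon and intron reads, which already pairs them by library, and averaged contrasts have no fit to the samples of 1 contrast. Depth limits intron values most, at 18 to 90 reads per library.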

Other observations

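Genes within 50 kb of the pair were compared by time, averaged over genotypes, a contrast in which 22.5% of all genes passed. On the Rbm3 side, Tbc1d25, 8592 bases away on the same strand, rose by 0.68 on the log2 scale at ZT14 (SE 0.11, edgeR adjusted p = 0.00106), near the 0.72 of Rbm3. Porcn, which acylates Wnt proteins, rose by 0.42 (SE 0.12, adjusted p = 0.0241) and Wdr13 by 0.16 (SE 0.052, adjusted p = 0.0384), while Ebp, an enzyme of cholesterol synthesis, was at -0.0008 (adjusted p = 0.995) and Was at 0.06 (adjusted p = 0.864). Rbm3os overlaps Rbm3 on the opposite strand and held 0 to 4 reads per library, too few to be tested.

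On the Cirbp side, Midn, 7617 bases upstream, fell by 0.28 (SE 0.065, edgeR adjusted p = 0.00924). The transcript 1600002K03Rik, which starts 158 bases past the end of Cirbp on the same strand, was at 0.03 (SE 0.16, adjusted p = 0.930), and Stk11, Cbarp and Atp5d did not pass. Whether neighbours share a cause with Cirbp or Rbm3 was not tested.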
